A study of Mus musculus with 42 samples.

Results

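The Cyp3a family of mouse liver was described in 42 female APOE*3-Leiden mice, transgenic animals that carry a human apolipoprotein E variant and develop hyperlipidemia on cholesterol-rich diets. Its 8 members were Cyp3a11, Cyp3a13, Cyp3a16, Cyp3a25, Cyp3a41a, Cyp3a41b, Cyp3a44 and Cyp3a59, out of 54446 genes counted by RNA sequencing of whole liver. The family was picked because its group differences in these mice were already known, so the differences between groups are given as a description and not as an independent test of the choice. The 3 groups were a chow-fed reference group (Chow, n = 10), mice on a Western type diet (WTD, n = 16) and mice on the same diet with atorvastatin (WTD+Atorvastatin, n = 16), all sampled at 32 weeks. Mice of both WTD groups were 8 to 14 weeks old when they started a run-in of 3 weeks on WTD, which held 15% cocoa butter, 40.5% sucrose and 1% cholesterol. Atorvastatin, an inhibitor of cholesterol synthesis, was mixed into the diet at 3.0 mg/kg/day and raised to 4.5 mg/kg/day at week 5. Sodium cholate at 0.05% was added to the WTD of both groups at week 22, so the atorvastatin-treated mice received the bile salt as well. The names of the chow-fed mice carry another prefix than those of both other groups, and any difference in handling between these series of mice cannot be told apart from diet.

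Enzymes of the cytochrome P450 3A family sit in the endoplasmic reticulum of hepatocytes and oxidize steroids, bile acids and a large share of drugs, statins included. They receive electrons from P450 oxidoreductase and cytochrome b5 and hold a heme group. In hepatocytes, their transcription is driven by the nuclear receptors PXR (Nr1i2) and CAR (Nr1i3) together with factors that define the hepatocyte, such as HNF4A. In adult mice Cyp3a11 is the main form in liver of both sexes, whereas Cyp3a16, Cyp3a41a, Cyp3a41b and Cyp3a44 are known as female-predominant genes that follow the sex-specific pattern of growth hormone release. Cyp3a13 is also found outside the liver, and Cyp3a25 and Cyp3a59 are close relatives of each other.

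On build GRCm38, 7 of the 8 members lie in a cluster on chromosome 5, in the order Cyp3a16 (chr5:145436309-145469723), Cyp3a41b (chr5:145558664-145584730), Cyp3a41a (chr5:145694049-145720136), Cyp3a44 (chr5:145773983-145805874), Cyp3a11 (chr5:145854426-145879964), Cyp3a25 (chr5:145977194-146009618) and Cyp3a59 (chr5:146079257-146113287). Cyp3a13 lies apart from it (chr5:137892932-137921619). All are protein-coding genes on the minus strand except Cyp3a59, which is on the plus strand. Cyp3a57, which is not among the members, lies beyond Cyp3a16 (chr5:145345279-145390926). Among the 7 members of the cluster, the genes known as female-predominant are thus neighbours at one end, next to Cyp3a11.

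The stretches upstream of the transcription start are shown for these neighbours and for Cyp3a25, because the 4 female-predominant genes share a short motif that the other members lack. They are the last 150 bases before the start, 5′ to 3′ on the strand of the gene, from RefSeq promoters on GRCm38.p6, in which all 8 members were found. For Cyp3a11 the RefSeq start lies 110 bases inside the gene as annotated, so 110 of its 150 bases belong to the annotated gene. Its positions are shifted against those of the 4 genes, but the printed stretch covers the place of the motif. Where the 4 genes read atcaatctactgg, Cyp3a11 reads atccatctactgg. Capitals mark the core motif ATTGAT of Onecut and Cut-type homeodomain factors, which reads ATCAAT on the other strand. The stretches are at chr5:145469724-145469873, chr5:145720137-145720286, chr5:145584731-145584880, chr5:145805875-145806024, chr5:145879855-145880004 and chr5:146009619-146009768, in this order and all on the minus strand.
Cyp3a16: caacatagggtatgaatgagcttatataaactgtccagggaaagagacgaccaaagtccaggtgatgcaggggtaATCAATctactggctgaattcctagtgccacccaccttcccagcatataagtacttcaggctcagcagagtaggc
Cyp3a41a: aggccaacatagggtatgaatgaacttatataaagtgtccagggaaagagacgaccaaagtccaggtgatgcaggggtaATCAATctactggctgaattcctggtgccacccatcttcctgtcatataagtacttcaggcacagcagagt
Cyp3a41b: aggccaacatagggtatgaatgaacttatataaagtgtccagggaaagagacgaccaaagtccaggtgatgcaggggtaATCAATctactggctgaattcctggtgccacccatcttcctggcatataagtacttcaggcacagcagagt
Cyp3a44: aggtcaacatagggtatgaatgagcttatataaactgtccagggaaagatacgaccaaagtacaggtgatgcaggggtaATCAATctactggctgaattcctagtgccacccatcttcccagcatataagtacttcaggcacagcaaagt
Cyp3a11: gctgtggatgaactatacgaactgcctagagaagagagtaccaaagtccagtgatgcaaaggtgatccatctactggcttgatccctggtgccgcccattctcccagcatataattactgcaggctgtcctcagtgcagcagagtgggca
Cyp3a25: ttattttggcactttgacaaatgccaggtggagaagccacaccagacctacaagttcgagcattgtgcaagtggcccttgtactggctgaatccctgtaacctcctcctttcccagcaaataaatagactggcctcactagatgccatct

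The motif was found in the 250 bases upstream of 4 members, Cyp3a16, Cyp3a41a, Cyp3a41b and Cyp3a44, and in 6.72% of all 32851 promoters of the same length. It lay at bases -75 to -70 from the start in Cyp3a16 and at bases -71 to -66 in Cyp3a41a, Cyp3a41b and Cyp3a44. These 4 promoters were 90.9% to 99.6% identical to each other, so they are not independent of one another. The core AGGTCA of nuclear receptor sites was found upstream of Cyp3a11, Cyp3a25, Cyp3a44 and Cyp3a59, and in 14.0% of all promoters, and the related core AGTTCA upstream of Cyp3a11, Cyp3a41a and Cyp3a41b, and in 11.8% of all promoters. No member held the STAT5 motif TTCNNNGAA, found in 7.02% of all promoters. None held paired cores in the arrangements DR1 (AGGTCANAGGTCA), DR3 (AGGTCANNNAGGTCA), DR4 (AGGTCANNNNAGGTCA) or ER6 (TGAACTNNNNNNAGGTCA) within this window. These exact letters occur in only 0.0335%, 0.0061%, 0.0152% and 0% of all promoters, so their absence says nothing about the family. The motif TTGCNNAA of C/EBP factors was found upstream of Cyp3a25 alone, and in 9.56% of all promoters, and TATAAA upstream of Cyp3a11 and the 4 female-predominant genes, and in 12.4% of all promoters. Both strands were searched, the single cores lie within the paired arrangements, and a match is a description of the letters only.

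The members also share much of their coding sequence. Cyp3a41a and Cyp3a41b were 99.9% identical over the coding sequence, and a stretch of 150 bases, the length of a read, was unique to its gene for only 17.1% of the positions of the Cyp3a41a transcript and 17.3% of those of Cyp3a41b. Cyp3a25 and Cyp3a59 were 97.5% identical, yet 99.3% of the positions of either transcript were unique, and the other 4 members were unique throughout. Read pairs without a unique alignment were not counted, so the counts of Cyp3a41a and Cyp3a41b, and their sum, may be too low. The split of the counted pairs between both genes is uncertain as well, and the sum of this pair is given beside the single genes. Among mice with at least 100 counts for the pair, Cyp3a41b took a median of 12.2% of them in 10 chow-fed mice (3.50% to 26.0%), 7.50% in 8 WTD-fed mice (0% to 13.0%) and 7.60% in 15 atorvastatin-treated mice (2.96% to 25.6%). With the counts of a group pooled the shares were 11.5%, 6.64% and 14.6%, so the order of chow and atorvastatin depends on whether mice are weighted equally.

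Counts on genes ranged from 15661381 to 36224054 per mouse, with a median of 19421089.5. In 9 libraries (3 Chow, 5 WTD, 1 WTD+Atorvastatin), over 20% of genes at 1 to 2 CPM in their group had no count. This is a sign of few distinct molecules, and these are called libraries of few molecules below, although molecules were not counted. Values without these libraries are given where they change a call. Levels are CPM, that is counts scaled to library size with TMM factors. Hepatocyte markers were abundant in all groups, with a summed level over 11 genes of 129633 to 185917 CPM in chow-fed mice (median 146946), 64466 to 121901 CPM in WTD-fed mice (median 81067) and 73399 to 147098 CPM in atorvastatin-treated mice (median 123648). The 12 macrophage markers summed to 429 to 652 CPM, 2464 to 4538 CPM and 1788 to 3186 CPM, with medians of 525, 3172 and 2216 CPM, and the 10 stellate cell and fibroblast markers to 548 CPM, 2174 CPM and 1277 CPM in the same order. In whole liver, fewer hepatocytes and less RNA per hepatocyte cannot be told apart, and the part of these shifts in the Cyp3a values was not tested.

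In chow-fed mice Cyp3a11 was by far the most abundant member. Divided by the length of the transcript, Cyp3a11 stood at 1557 ± 188 CPM per kb (SD, n = 10), followed by Cyp3a25 at 519 ± 86.9 CPM per kb. Cyp3a13 (74.6 ± 7.67 CPM per kb), Cyp3a59 (65.2 ± 24.1 CPM per kb) and Cyp3a41a (61.4 ± 28.4 CPM per kb) came next and overlapped in their spread. Cyp3a16 (42.2 ± 41.3 CPM per kb) and Cyp3a44 (24.0 ± 12.3 CPM per kb) overlapped as well, and Cyp3a41b was lowest at 7.98 ± 5.28 CPM per kb. Few positions of Cyp3a41a and Cyp3a41b are unique, and their levels were divided by the whole transcript. Both may therefore be too low beside the other members. The order by mean level was the same in WTD-fed mice. In atorvastatin-treated mice Cyp3a41a and Cyp3a16 had mean levels above that of Cyp3a59, at 39.8 ± 31.6, 34.4 ± 34.6 and 25.7 ± 10.7 CPM per kb (SD, n = 16), a difference within the spread between mice.

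WTD feeding was compared to chow to ask how the diet affected the family. All 8 members were lower in WTD-fed mice than in chow-fed mice at an adjusted p under 0.01, against a background of 16% of the 15574 tested genes called lower (33.5% in either direction). The median log2 fold change of the members was -2.94, and that of all tested genes was 0.03. The decrease was of a different size in different members: it was between 1.58-fold and 3.29-fold for Cyp3a11, Cyp3a13, Cyp3a25 and Cyp3a59, and between 17.9-fold and 33.9-fold for Cyp3a16, Cyp3a41a, Cyp3a41b and Cyp3a44. Each adjusted p is from the quasi-likelihood test of edgeR with Benjamini-Hochberg adjustment over all tested genes, and since the members were picked on this contrast it is given as a description. All 8 members passed the filter on low counts, although Cyp3a41b reached its cutoff in 4 of the 16 WTD-fed mice and so passed through the other groups.

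Cyp3a11, the main drug-metabolizing form, had a lowest, median and highest level of 2846, 3773 and 4093 CPM in chow-fed mice and of 1601, 2419.6 and 2797 CPM in WTD-fed mice. All 16 WTD-fed mice were below the lowest chow-fed mouse. The log2 fold change was -0.66 ± 0.09 (SE, adjusted p = 7.06e-08). Without TMM scaling it was -0.34 (adjusted p = 0.000632), where the median of all tested genes moved to 0.34, and relative to that median it was -0.68 under both scalings.

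Cyp3a25 had levels of 789, 1036 and 1256 CPM in chow-fed mice and of 358, 451 and 832 CPM in WTD-fed mice, given as the lowest, the median and the highest mouse. In 15 of 16 WTD-fed mice it was below every chow-fed mouse, and the exception was mouse Gen20. Its log2 fold change was -1.15 ± 0.14 (SE, adjusted p = 2.5e-09). Its relative Cyp3a59 went from 55.2, 120 and 218 CPM on chow to 21.6, 38.0 and 72.2 CPM on WTD. The fold change of Cyp3a59 was -1.72 ± 0.21 on the log2 scale (SE, adjusted p = 9.04e-09), and 14 of 16 WTD-fed mice were below the lowest chow-fed mouse. Cyp3a13, which lies outside the cluster, had levels of 192, 217 and 252 CPM on chow and of 94.0, 117 and 176 CPM on WTD, without overlap between the groups. Its log2 fold change was -0.86 ± 0.09 (SE, adjusted p = 3.23e-11).

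The female-predominant members were close to absent in several WTD-fed mice. Cyp3a41a had a lowest, median and highest level of 17.0, 125 and 204 CPM in chow-fed mice and of 0.105, 2.83 and 32.6 CPM in WTD-fed mice. The highest WTD-fed mouse was above the lowest chow-fed mouse, AZ9, and 14 of 16 WTD-fed mice were below all chow-fed mice. The log2 fold change was -4.22 ± 0.63 (SE, adjusted p = 5.11e-07). Cyp3a41b went from 4.04, 14.8 and 41.5 CPM on chow to 0, 0.153 and 2.33 CPM on WTD, with no count in 4 WTD-fed mice and no overlap between the groups. The fold change of Cyp3a41b was -5.08 ± 0.78 on the log2 scale (SE, adjusted p = 8.83e-07), and that of the pair summed was -4.30 ± 0.64. The summed pair does not depend on how counted read pairs were divided between both copies, but it lacks pairs that had no unique alignment.

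Cyp3a44 had levels of 12.8, 48.6 and 74.9 CPM in chow-fed mice and of 0, 1.29 and 7.61 CPM in WTD-fed mice. The groups did not overlap, and 3 WTD-fed mice had no count. Its log2 fold change was -4.50 ± 0.59 (SE, adjusted p = 4.14e-08). Cyp3a16, a form that is also strong in the fetal and newborn liver, had levels of 8.86, 42.7 and 241 CPM on chow and of 0.112, 2.36 and 20.1 CPM on WTD, with 13 of 16 WTD-fed mice below all chow-fed mice. The fold change of Cyp3a16 was -4.16 ± 0.69 on the log2 scale (SE, adjusted p = 3.5e-06), but with limma-voom and sample quality weights its adjusted p was 0.0214. Without the 9 libraries of few molecules edgeR called all 8 members lower.

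**Figure D1:**
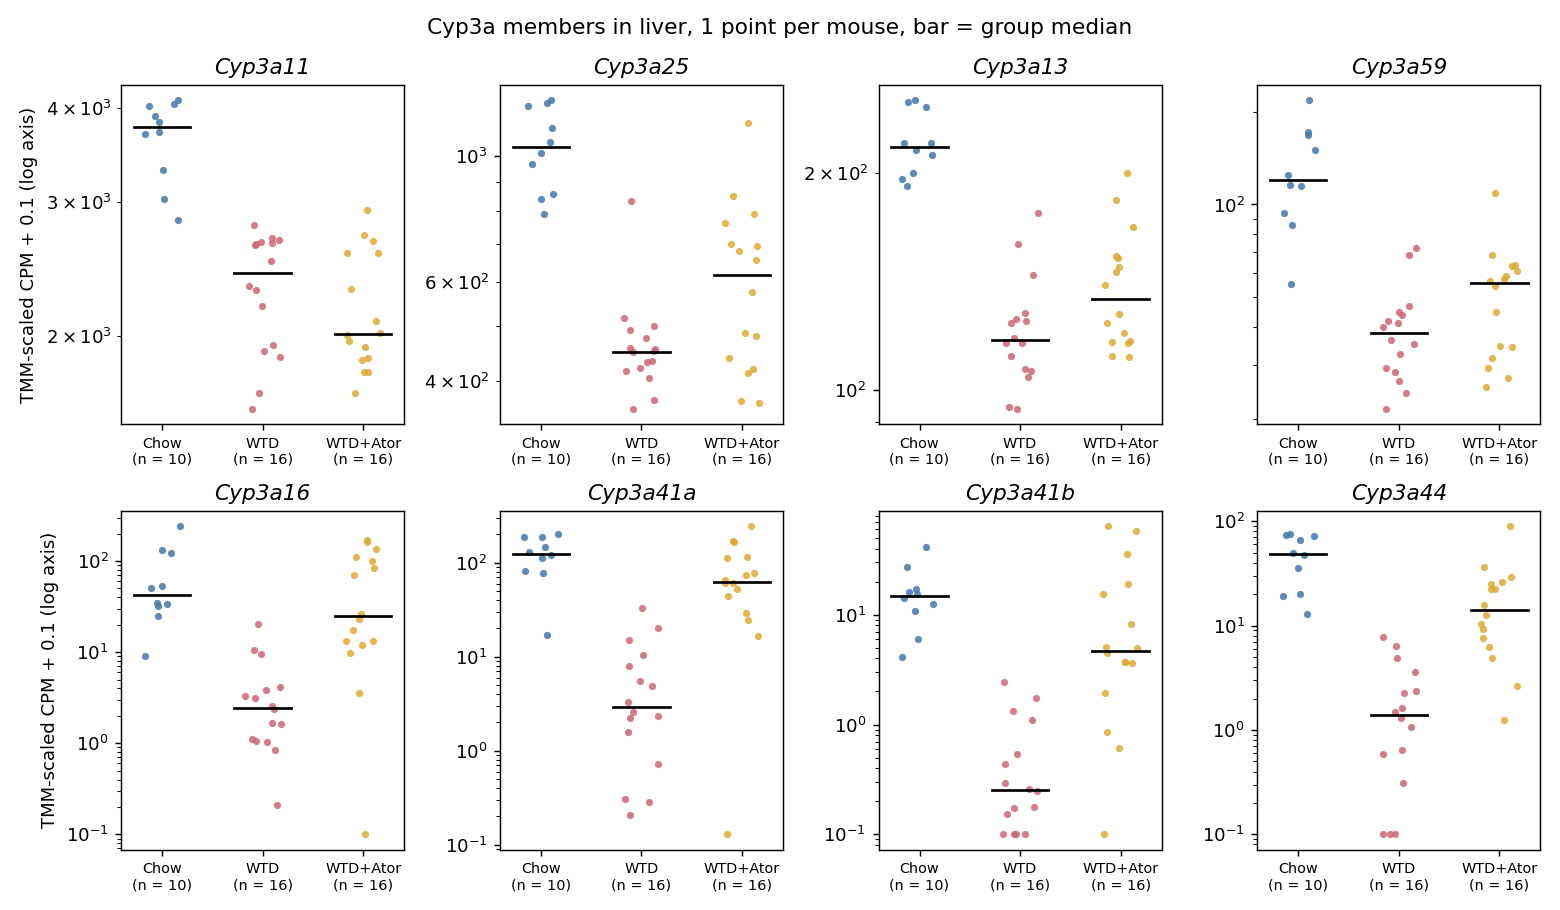
Level of each Cyp3a member in each mouse, in TMM-scaled CPM plus 0.1 on log axes that differ between panels, for 10 chow-fed, 16 WTD-fed and 16 atorvastatin-treated mice; the bar is the group median. In the top row the WTD-fed mice lie below nearly all chow-fed mice and the atorvastatin-treated mice lie close to them, whereas in the bottom row most atorvastatin-treated mice lie above the WTD-fed mice, up to 245 CPM for Cyp3a41a.

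Summed over the 8 members, the level was 4599, 5422 and 5990.3 CPM in chow-fed mice (lowest, median and highest) and 2242, 3057 and 3805 CPM in WTD-fed mice. The groups did not overlap, and the log2 fold change of the sum was -0.84 ± 0.09 (SE, adjusted p = 1.06e-10). Since Cyp3a11 dominates it, the sum hides the larger change of the female-predominant members. These 4 genes together went from 51.8, 227 and 558 CPM on chow to 0.933, 6.77 and 49.3 CPM on WTD. All 16 WTD-fed mice were below the lowest chow-fed mouse, by a log2 fold change of -4.29 ± 0.59 (SE, adjusted p = 1.1e-07).

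Atorvastatin-treated mice were next compared to WTD-fed mice, which asks whether the drug changed the family on the same diet. Of the 8 members, 4 were higher with atorvastatin at an adjusted p under 0.01, against a background of 4.84% of tested genes called higher (7.1% in either direction), and none was lower, beside 2.26% of tested genes. They were the 4 female-predominant genes. The other 4 members did not pass the test. The median log2 fold change of the members was 1.83, a value between those 4 genes and the other 4, and that of all tested genes was 0.00. Over all genes, 754 were called higher and 352 lower, a split that was 582 and 479 with RLE scaling and 330 and 1022 without TMM factors, and the same number of members, 4, was called under each.

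Cyp3a41a had a lowest, median and highest level of 0.0289, 62.9 and 245 CPM in atorvastatin-treated mice. In 12 of 16 of these mice it was above every WTD-fed mouse, and in 1, mouse Gen28, it was below every WTD-fed mouse. The increase was 12.1-fold, a log2 fold change of 3.59 ± 0.59 (SE, adjusted p = 6.12e-05). Cyp3a41b had levels of 0, 4.60 and 64.0 CPM, and its log2 fold change was 4.88 ± 0.75 (SE, adjusted p = 2.97e-05). The pair summed rose by 3.73 ± 0.60 on the log2 scale (SE, adjusted p = 5.22e-05).

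Cyp3a16 had levels of 0, 24.8 and 172 CPM in atorvastatin-treated mice, and 9 of 16 were above every WTD-fed mouse. Its log2 fold change was 3.86 ± 0.65 (SE, adjusted p = 7.83e-05). Cyp3a44 had levels of 1.16, 14.2 and 89.8 CPM, with 11 of 16 mice above every WTD-fed mouse and a log2 fold change of 3.27 ± 0.55 (SE, adjusted p = 7.31e-05). With limma-voom the adjusted p of Cyp3a16 was 0.0515 and that of Cyp3a41b was 0.0158, while Cyp3a41a and Cyp3a44 still passed.

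These 4 genes differed widely between mice that received the same treatment. Their sum ran from 1.18 CPM in mouse Gen28 to 561 CPM in mouse Gen34, with a median of 115 CPM, and 12 of 16 mice were above the highest WTD-fed mouse. Mouse Gen28 had no count for Cyp3a16 and Cyp3a41b, yet its Cyp3a11 stood at 1868 CPM and its Cyp3a25 at 488 CPM, within the range of its group. The sum rose by 3.71 ± 0.55 on the log2 scale (SE, adjusted p = 2.59e-05), by 3.80 without Gen28 and by 3.48 without Gen34.

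Cyp3a11 did not pass the test between both WTD groups. Its lowest, median and highest level was 1677, 2010.0 and 2935 CPM with atorvastatin, and 1 of 16 mice was above every WTD-fed mouse. The log2 fold change was -0.09 ± 0.08 (SE, adjusted p = 0.562), and without TMM scaling it was -0.26 (adjusted p = 0.0106). Cyp3a25 had levels of 366, 616 and 1144 CPM and a log2 fold change of 0.40 ± 0.12 (SE, adjusted p = 0.0268). Without the WTD-fed mouse Gen20, which had the highest Cyp3a25, Cyp3a13 and Cyp3a59 of its group and a library of few molecules, the value for Cyp3a25 was 0.47 (adjusted p = 0.0028), and with limma-voom Cyp3a25 also passed (adjusted p = 0.00611). Cyp3a13 had levels of 111, 133 and 200 CPM, with a log2 fold change of 0.20 ± 0.08 (SE, adjusted p = 0.109) that was 0.33 without the 9 libraries of few molecules (adjusted p = 0.00386). Cyp3a59 had levels of 25.5, 55.3 and 109 CPM, with a log2 fold change of 0.37 ± 0.19 (SE, adjusted p = 0.224). The sum of the 8 members differed by 0.09 ± 0.08 (SE, adjusted p = 0.572).

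Against chow, 4 members were lower in atorvastatin-treated mice, namely Cyp3a11, Cyp3a13, Cyp3a25 and Cyp3a59, beside 10.7% of all tested genes called lower (25% in either direction). This comparison shares its mice with both others. The log2 fold change was -0.75 ± 0.09 for Cyp3a11 (adjusted p = 5.93e-09), and those of Cyp3a13, Cyp3a25 and Cyp3a59 were -0.66, -0.76 and -1.35 with SEs of 0.09, 0.14 and 0.21. The sum of the 8 members was 2338, 2942 and 4555 CPM with atorvastatin, below the lowest chow-fed mouse in 16 of 16 mice. The female-predominant genes did not pass the test against chow. Their log2 fold changes were -0.30 ± 0.64 for Cyp3a16, -0.62 ± 0.59 for Cyp3a41a, -0.21 ± 0.69 for Cyp3a41b and -1.23 ± 0.54 for Cyp3a44. The SEs of Cyp3a16, Cyp3a41a and Cyp3a41b leave room for levels below or above chow. Cyp3a44 was below the chow median in 15 of 16 atorvastatin-treated mice. In 8 of them it was below every chow-fed mouse, and in 1 it was above every chow-fed mouse. With limma-voom Cyp3a44 was called lower (adjusted p = 0.00284). The value for Cyp3a16 was 0.13 and that for Cyp3a41b 0.06 without the chow-fed mouse AZ2, a library of few molecules with the highest level of both genes in its group.

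**Figure D2:**
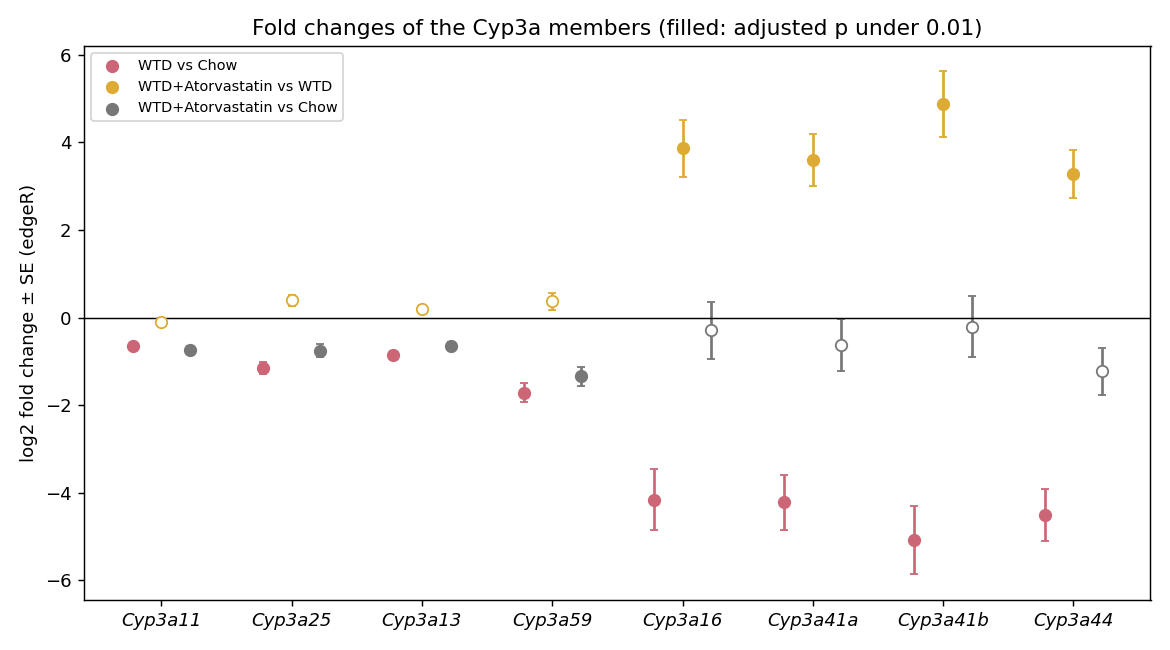
Log2 fold change of each Cyp3a member with its standard error in 3 comparisons, from edgeR; filled points have an adjusted p under 0.01. The 4 members on the left lie between -1.72 and 0.40 in all comparisons, and the 4 on the right fall to between -5.08 and -4.16 on WTD and lie between 3.27 and 4.88 with atorvastatin against WTD.

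The makeup of the family was then compared, since the share of a member in the summed counts of a mouse does not depend on how libraries are scaled. Cyp3a11 took 68.8% ± 4.51 of the family counts in chow-fed mice (SD, n = 10), 78.2% ± 3.69 in WTD-fed mice (SD, n = 16) and 69.4% ± 5.43 in atorvastatin-treated mice (SD, n = 16). The WTD group was 9.41 percentage points above chow and the atorvastatin group differed from WTD by -8.74 points (two-sided permutation tests, p = 2e-05 for each, the smallest that 100000 resamples can give, and adjusted p = 3e-05 over 6 share tests). Atorvastatin-treated mice differed from chow-fed mice by 0.67 points (permutation p = 0.749, adjusted p = 0.895). The shares are made from the counts of members picked on such differences, so all share tests are given as a description. The share of Cyp3a11 and that of the 4 female-predominant genes are parts of the same total.

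The 4 female-predominant genes took 4.98% ± 2.92 of the family counts in chow-fed mice and 0.441% ± 0.511 in WTD-fed mice. With atorvastatin their share was 5.30% ± 4.73, and it ran from 0.0463% in Gen28 to 18.8% in Gen34. Read pairs without a unique alignment were not counted, so these shares may be too low in all groups. The share fell by 4.54 points on WTD, and it was 4.85 points higher with atorvastatin than on WTD alone (permutation p = 2e-05 and adjusted p = 3e-05 for each). The difference between atorvastatin and chow was 0.32 points (permutation p = 0.895), and it changed sign without AZ9, Gen31 or Gen34. Cyp3a25 took 19.6% ± 3.22, 15.9% ± 2.56 and 19.2% ± 3.70 of the counts in chow-fed, WTD-fed and atorvastatin-treated mice. The share of Cyp3a13 was 4.18%, 4.20% and 4.50% in the same order, and that of Cyp3a59 was 2.46%, 1.32% and 1.59%.

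**Figure D3:**
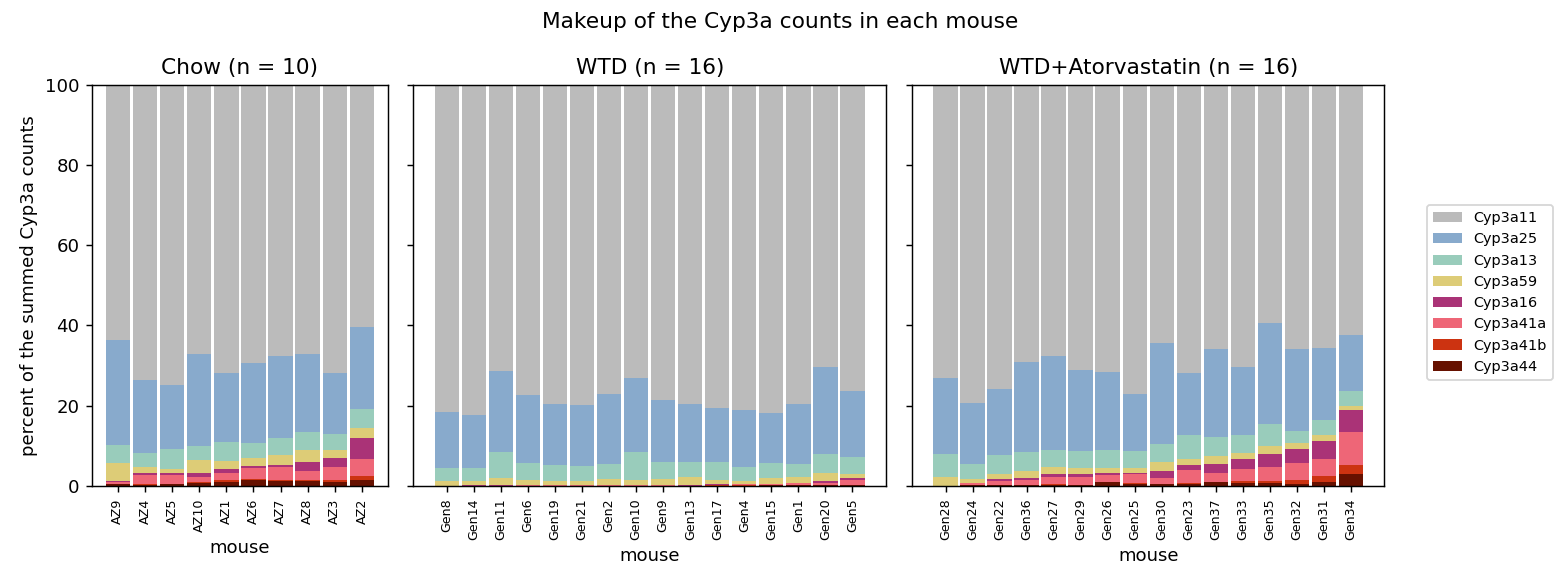
Percent of the summed Cyp3a counts taken by each member, 1 bar per mouse, with mice ordered within each group by the share of Cyp3a16, Cyp3a41a, Cyp3a41b and Cyp3a44. These 4 genes are a thin band in WTD-fed mice, at most 1.94% in mouse Gen5, and reach 11.8% in the chow-fed mouse AZ2 and 18.8% in the atorvastatin-treated mouse Gen34.

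Mice with a high level of one female-predominant member tended to have a high level of the others. After removal of the group means, Pearson's r of log2(CPM + 0.5) over the 42 mice was 0.72 to 0.83 for the 6 pairs among Cyp3a16, Cyp3a41a, Cyp3a41b and Cyp3a44. Among the other 4 members it was 0.21 to 0.81, with the highest value for Cyp3a25 and Cyp3a59, and for the 16 pairs between both sets it was -0.07 to 0.40. Cyp3a11 is 92.8% to 95.2% identical to the female-predominant members in coding sequence, yet its r with them was 0.09 to 0.28. Spearman's rho among the 4 genes was 0.13 to 0.76 within the 10 chow-fed mice, 0.34 to 0.79 within the 16 WTD-fed mice and 0.80 to 0.94 within the 16 atorvastatin-treated mice. The points share libraries and scaling, so these values are descriptions.

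**Figure D4:**
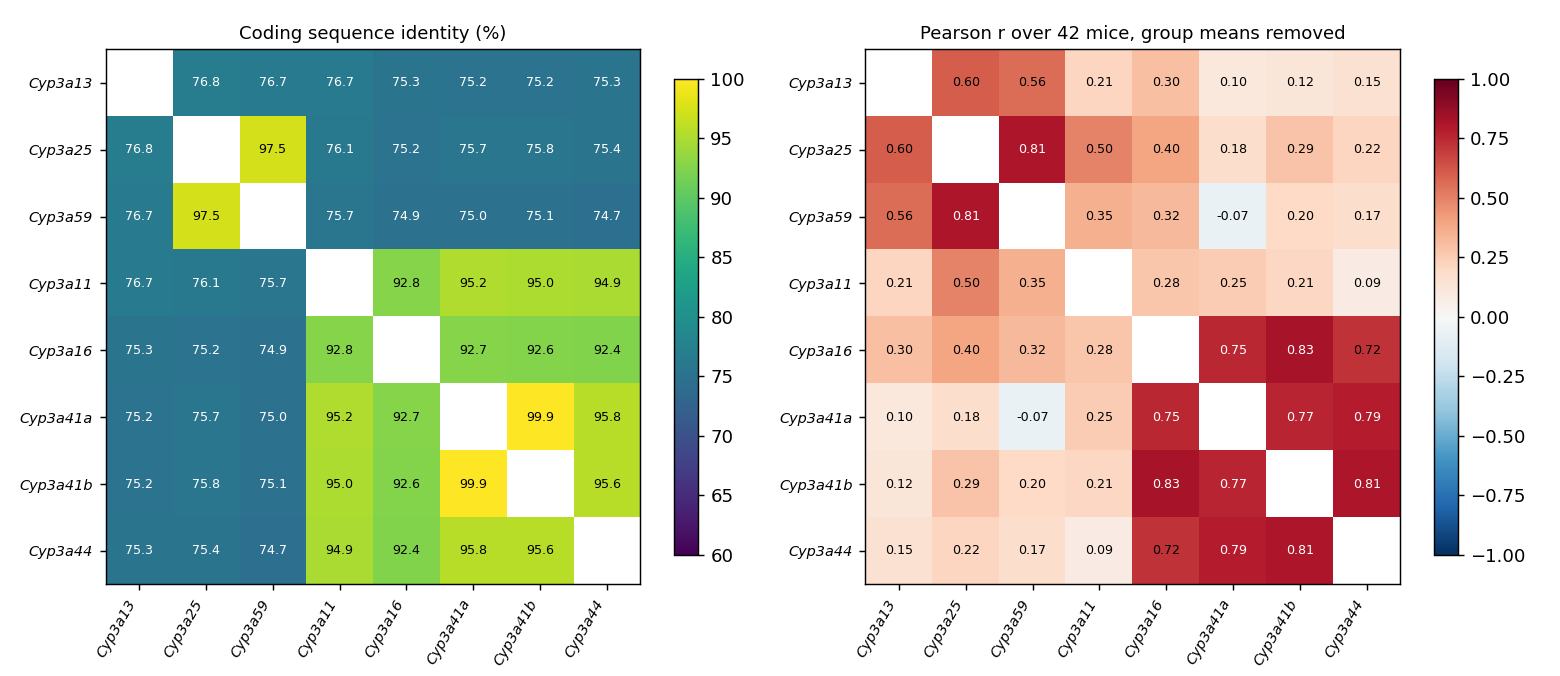
Left, identity of the coding sequences of each pair of members in percent; right, Pearson's r of log2(CPM + 0.5) over 42 mice after removal of the group means. Cyp3a16, Cyp3a41a, Cyp3a41b and Cyp3a44 form a block of r from 0.72 to 0.83, and Cyp3a11, close to them in sequence, does not join it.

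Among 10923 other genes with a mean of at least 100 counts, the ones most like Cyp3a25 over the 42 mice with group means removed were Ghr, the growth hormone receptor (r = 0.86), Sult1d1, a sulfotransferase (r = 0.85), and Ces2a, a carboxylesterase (r = 0.83). For Cyp3a11 they were Glud1 (r = 0.74), Gmps (r = 0.67) and Trmt9b (r = 0.67), and for Cyp3a13 they were Saa4 (r = 0.77), Itih4 (r = 0.74) and Pigr (r = 0.73). For Cyp3a16 they were 9030619P08Rik (r = 0.83), Lipc, the hepatic lipase (r = 0.82), and Sult2a3, a sulfotransferase (r = 0.80). Cyp3a41a was most like Mup22 (r = 0.77), Acpp (r = 0.76) and Gulo (r = 0.75), and Cyp3a41b was most like Slc29a1, 9030619P08Rik and Paqr9 (r = 0.77, 0.77 and 0.76). For Cyp3a44 and Cyp3a59 the leading genes, Ppdpf and Sult1d1, both had an r of 0.72.

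The receptors that drive Cyp3a transcription were lower on WTD as well. Of 10 genes for PXR, CAR and their partners, 4 were lower in WTD-fed mice, none was higher, and 6 did not pass the test. Over all tested genes 16% were lower and 17.5% higher on WTD, shares that also stand beside the lists that follow. Nr1i3, which encodes CAR, fell by 1.46 on the log2 scale (adjusted p = 1.32e-08), and Nr1i2, which encodes PXR, fell by 0.44 (adjusted p = 4.23e-06). Nr1h4, the bile acid receptor FXR, fell by 0.84 (adjusted p = 3.05e-10). With atorvastatin none of the 10 passed the test against WTD at the threshold. Over all tested genes 4.84% were higher and 2.26% lower in that comparison, so none among 10 is near those shares. The log2 fold changes were 0.50 for Nr1i3 (adjusted p = 0.0362) and 0.11 for Nr1i2 (adjusted p = 0.33). Among 15 tested target genes of PXR and CAR outside the family, 9 were lower and 2 higher on WTD, and 3 were higher and none lower with atorvastatin against WTD. Slco1a4, an uptake transporter, fell by 1.48 on WTD, Aldh1a1, a retinal dehydrogenase, by 1.07, and Ces2a by 1.40 on the log2 scale. The 3 that rose with atorvastatin were Abcc2, an export pump, by 0.45, Papss2, which makes the sulfate donor, by 0.71, and the P450 gene Cyp2c29 by 0.66.

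Genes for electron transfer to P450 enzymes and for heme supply were lower in part. Of 16 such genes, 10 were lower and 2 higher on WTD, and 6 were higher and none lower with atorvastatin against WTD. Pgrmc1, a heme-binding partner of P450 enzymes, fell by 0.85 on WTD, Cyb5a, cytochrome b5, by 0.80, and Alad, an early enzyme of heme synthesis, by 0.81 on the log2 scale. With atorvastatin, Fech, the last enzyme of heme synthesis, rose by 0.39, Cyb5b by 0.50 and Ppox by 0.42. Of 12 hepatocyte transcription factors, 5 were lower, among them Prox1 by a log2 fold change of -0.42, and 1, Nfe2l2, was higher on WTD by 0.40, and Hnf4a was higher with atorvastatin than on WTD, by 0.33 on the log2 scale. Onecut1, a factor that binds the motif printed above, had 768 counts in all mice together and did not pass the test on WTD or with atorvastatin (adjusted p = 0.405 and 0.388), with medians of 0.779, 0.293 and 0.881 CPM in chow-fed, WTD-fed and atorvastatin-treated mice.

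Other genes known for higher levels in female liver moved in both comparisons. Of 18 such genes outside the family, 12 were lower and 3 higher on WTD, and 7 were higher and 1 lower with atorvastatin against WTD. A1bg had medians of 844, 12.7 and 56.9 CPM in the order chow, WTD and atorvastatin. Sult2a1, a steroid sulfotransferase, had medians of 251, 12.7 and 142 CPM, and the P450 gene Cyp2b9 had medians of 607, 157 and 345 CPM. Of 14 tested genes known for higher levels in male liver, 7 were lower and 2 higher on WTD, and 2 were higher and 1 lower with atorvastatin. Ugt2b1, a glucuronosyltransferase, had medians of 214, 112 and 182 CPM, Susd4 of 11.4, 1.88 and 1.62 CPM and Nudt7 of 193, 75.7 and 179.9 CPM. Serpina12, with 17.8, 71.0 and 54.1 CPM, and the urinary protein Mup20, with 74.0, 524 and 94.6 CPM, were the 2 that were higher on WTD. Of 10 genes for growth hormone signalling and sex-biased regulation, 4 were lower and 1 higher on WTD. Igf1, the main target of growth hormone in liver, fell by 0.79 on WTD, and Jak2, the kinase of its receptor, rose by 0.57 on the log2 scale. Ghr fell by 0.94 on WTD and rose by 0.49 with atorvastatin on the log2 scale (adjusted p = 9.77e-11 and 0.000221), and Cux2, a female-biased regulator that binds motifs of the Cut type, had medians of 64.1, 20.4 and 55.0 CPM (adjusted p = 0.00132 and 0.0142). Spearman's rho of the 4 summed Cyp3a genes in chow-fed, WTD-fed and atorvastatin-treated mice was 0.38, 0.66 and 0.72 with Cyp2b9. It was 0.79, 0.28 and 0.69 with Cux2, and 0.42, 0.51 and 0.66 with A1bg.

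Hepatocyte markers were lower on WTD as well. Of 11 such genes, 11 were lower on WTD and 5 were higher and 6 did not pass the test with atorvastatin against WTD. Their median log2 fold changes were -0.81 and 0.25. Cyp3a11, Cyp3a13, Cyp3a25 and Cyp3a59 lay between -1.72 and -0.66 on WTD and between -0.09 and 0.40 with atorvastatin. The 4 female-predominant genes lay between -5.08 and -4.16 on WTD and between 3.27 and 4.88 with atorvastatin. Of 12 macrophage markers, 10 were higher on WTD, and 6 were lower and 1 higher with atorvastatin. Of 8 cholangiocyte markers, 8 were higher on WTD, as were 6 of 10 stellate cell and fibroblast markers. With atorvastatin against WTD, 1 cholangiocyte marker was lower and 7 did not pass the test. Of the stellate cell and fibroblast markers, 4 were lower, 1 was higher and 5 did not pass it. Spearman's rho of the summed hepatocyte markers with the 4 female-predominant genes was 0.28 in chow-fed, 0.47 in WTD-fed and 0.54 in atorvastatin-treated mice. With Cyp3a11 it was 0.39, -0.03 and 0.61. Without the 9 libraries of few molecules these values were 0.82, 0.57 and 0.57 for the 4 genes, and 0.18, -0.17 and 0.575 for Cyp3a11. For the 4 genes, rho over all mice of each group was -0.64, -0.59 and -0.27 with cholangiocyte markers. It was 0.45, -0.54 and -0.20 with macrophage markers, and -0.47, -0.27 and -0.52 with stellate cell and fibroblast markers. With lymphocyte markers it was -0.38, 0.07 and 0.07, and with sinusoidal endothelium markers 0.35, -0.003 and 0.49. The part of cell makeup in these results was not tested.

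Of the remaining Cyp3a genes of the annotation, the pseudogene Cyp3a63-ps, which lies between Cyp3a41b and Cyp3a41a, had medians of 6.96, 0.137 and 2.36 CPM in the order chow, WTD and atorvastatin. Its log2 fold change on WTD was -3.71 (adjusted p = 0.000115), and with atorvastatin against WTD it was 1.83 (adjusted p = 0.0777). Cyp3a57 had 381 counts in all mice together and its log2 fold change on WTD was 2.69 (adjusted p = 0.0219), above chow unlike the 8 members but not past the threshold. Cyp3a61-ps1 had no count.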

How the data were processed

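Liver RNA of 42 mice was sequenced as strand-specific poly(A) libraries, 1 per mouse. The authors used STAR for alignment to GRCm38 and HTSeq 0.6.1p1 for counting, and the deposited values are raw counts of read pairs for each gene. Lines that name no gene were left out of totals (no feature 2.28% of counted pairs, ambiguous 5.95%, not unique 4.68%). Symbols, positions and transcripts came from GENCODE vM21 on GRCm38, in which 54409 of 54446 identifiers matched.

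The members and gene lists were chosen with earlier results of these data known. Genes were filtered with filterByExpr (minimum count 10, total 15), scaled by TMM and tested by the quasi-likelihood test of edgeR 4.0.16 (R 4.3.3) in 1 model of 3 groups, with Benjamini-Hochberg adjustment over 15574 genes; an adjusted p under 0.01 was called. The fit was tested on simulated data. Summed members were added as rows. Shares were compared by two-sided permutation over mice (scipy 1.17.1, 100000 resamples). Genes named outside the family were taken from the 3 that ranked first by p in each list for a comparison (not all are printed), the 3 most similar genes of each member (Pearson's r, group means removed), other Cyp3a genes, Nr1i2 and Nr1i3; Onecut1 and single values per mouse were chosen after seeing them. Promoters are RefSeq, 250 bases upstream. Alternatives were DESeq2 1.42.0, limma-voom (limma 3.58.1), other scalings and filters, and leaving out mice; scaling by library size alone and shares by transcript length were added after seeing the data. P values measure the spread between mice, and at 15661381 to 36224054 counts per mouse the counting error is largest for the members with few counts on WTD. A gene that this rule names is not reported here.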

Additional observations from a re-analysis of the deposited data

Results flagged for a closer look

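In the chow-fed group, 13 sets of values (the members, their sums and shares) were searched for a mouse far from the others. Cyp3a16 in mouse AZ2 was found, at 241 CPM, where the next mouse stood at 131 CPM, a gap of 0.477 of the range of the group against a limit of 0.466 for 10 mice. For values with a normal distribution, chance alone gives such a gap in about 1 in 20 groups. The values of Cyp3a16 on chow were skewed (lowest, median and highest 8.86, 42.7 and 241 CPM), so that rate may not hold for them. AZ2 was among the libraries called of few molecules, with 57.3% of genes at 1 to 2 CPM uncounted. The part of this library in the value was not tested. Without AZ2 the log2 fold change of Cyp3a16 between atorvastatin and chow was 0.13 (edgeR adjusted p = 0.908) in place of -0.30.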

How the results depend on the processing

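No paired analysis was possible because the mice of the 3 groups share no replicate numbers that link animals. The call of all 8 members on WTD, of 4 with atorvastatin against WTD and of 4 with atorvastatin against chow was recomputed under 10 other fits, another threshold and 42 fits without 1 mouse. With at least 10 counts in every mouse, the 4 female-predominant genes were no longer tested, so 4 members were called on WTD and 0 with atorvastatin against WTD. Genes called with atorvastatin against WTD numbered 1106, and 3145 with limma-voom, 1664 without the 9 libraries of few molecules and 2021 at an adjusted p under 0.05. Without 1 mouse they numbered 913 to 1575, and members called stayed 4 to 5. The sum of the 8 members with atorvastatin against WTD was 0.09 on the log2 scale and turned to -0.082 with library size alone, which moved the median of all genes to -0.16; neither passed the test. The differences in share between atorvastatin and chow were near 0 and ran from -0.27 to 1.34 points for Cyp3a11 and from -0.59 to 1.08 points for the 4 genes without 1 mouse; the cause was not tested. In atorvastatin-treated against chow-fed mice, Cyp3a16 and Cyp3a41b were 0.0095 and 0.0023 on the log2 scale without the 9 libraries, and without 1 mouse they ran from -0.49 to 0.13 and from -0.59 to 0.061, both highest without AZ2. The 4-gene sum on WTD lay between -4.58 and -4.10, and with atorvastatin against WTD between 3.48 and 4.00, without 1 mouse. Dividing by exon length before taking shares, or by transcript length (added after seeing the data), kept every call of the shares. Depth limits the levels of Cyp3a41b on WTD, which rest on 178 counts over 16 mice.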
